A study of Mus musculus with 41 samples.

Results

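The amino acid transporter genes described here are 31 genes of 7 solute carrier families that were measured in myeloid cells of irradiated and untreated mouse rectal tumours. They were chosen by symbol, as every gene named Slc1a, Slc3a, Slc6a, Slc7a, Slc36a, Slc38a or Slc43a followed by a number, with a mean normalised count of at least 5 over all libraries. Of the 55453 genes in the authors' deposited tables, 61 had such a symbol. Another 17 of these had a mean above 0 but under 5, and 13 were listed at 0. The lowest mean among the chosen genes was 8.39, for Slc7a4, and the highest mean below the limit was 3.53, for Slc43a1.

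MC38-luc cells, a mouse colon carcinoma line carrying luciferase, were implanted in the rectum of female C57BL6 mice. Irradiated tumours received 5 fractions of 5 Gy on days 9 to 13 after implantation, untreated tumours received none, and tumours were taken on day 14. From these tumours CD45+ CD11b+ cells were sorted into tumour-associated macrophages (TAM, negative for Ly6C and Ly6G and positive for a macrophage antigen), inflammatory monocytes (Ly6C+ Ly6G-) and granulocytes (Ly6C+ Ly6G+). TAM were sequenced from 10 irradiated and 5 untreated tumours, inflammatory monocytes from 9 irradiated and 5 untreated tumours, and granulocytes from 7 irradiated and 5 untreated tumours. The subsets share tumour numbers, 15 in all, with the same 5 untreated ones in each. Calls of a gene in several subsets are therefore not independent. The values are the authors' deposited comparisons of irradiated with untreated tumours within each subset, and values of single libraries and their depths were not analysed here. Each gene has a log2 fold change and a Wald statistic, which is an effect divided by its standard error and therefore carries the spread between tumours. For some genes both differ in sign, so the deposited fold is not the effect behind the statistic. Whether the folds were shrunken could not be told. A gene is said to have risen or fallen where the adjusted p-value of the authors' Wald test in DESeq2 was under 0.05, with the sign of the Wald statistic. No SD or n can be attached to a fold change beyond these tumour numbers. In sorted bulk samples, a change in the mixture of cells and a change in RNA per cell cannot be told apart.

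Cells take up amino acids through carriers that differ in substrate and in the ion or amino acid they exchange. SLC3 proteins are not carriers themselves but heavy chains, which bring SLC7 light chains to the cell surface through a disulphide bond. Members of SLC36 and SLC38 act at the plasma membrane or at the lysosome, where they release amino acids and pass their supply on to the growth kinase complex mTORC1. In macrophages, arginine uptake feeds nitric oxide synthase and arginase, and cystine uptake feeds glutathione synthesis.

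Slc7a11, Slc36a1 and Slc38a7, carriers whose RNA rose, are shown first with the bases before their start sites. Slc36a1 and Slc38a7 were taken among the carriers that rose in all 3 subsets because a searched motif lay there, and Slc7a11, which rose in TAM, was added after its match had been seen. Slc7a2, which also rose in all 3 subsets, had no promoter window and was not searched. CARE elements (TGATGNAA) are bound by ATF4, the transcription factor of the amino acid response, and E-boxes (CACGTG) by factors of the TFEB and MYC families. The sequences are the 100 bases before the RefSeq start site of build GRCm38.p6, read 5′ to 3′ on the gene's strand, with searched motifs in capitals. They stand at chr3:50443614-50443713 (minus strand) for Slc7a11, chr11:55204240-55204339 (plus strand) for Slc36a1 and chr8:95853492-95853591 (minus strand) for Slc38a7.
Slc7a11: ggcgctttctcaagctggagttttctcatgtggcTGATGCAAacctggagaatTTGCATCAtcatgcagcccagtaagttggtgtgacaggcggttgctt
Slc36a1: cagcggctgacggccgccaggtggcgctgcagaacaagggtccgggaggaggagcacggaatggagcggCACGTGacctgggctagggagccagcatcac
Slc38a7: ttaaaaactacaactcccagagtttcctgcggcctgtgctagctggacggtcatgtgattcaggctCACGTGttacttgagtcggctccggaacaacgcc

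The 2 CARE matches of Slc7a11 begin 66 and 47 bases before its start site and lie on opposite strands. The E-box begins 31 bases before the start site in Slc36a1 and 34 bases before it in Slc38a7. RefSeq held promoter windows for 22 of the 31 genes, 39 windows in all because some genes have several start sites, and the 250 bases before each start were searched on both strands. CARE letters occurred in 3 windows, of Slc7a7 and Slc7a11, against 3.45% of the 32851 windows of all genes. E-box letters occurred in 2 of the 39 windows, of Slc36a1 and Slc38a7, a share no higher than the 6.02% of all windows. Antioxidant response element letters (TGACNNNGC) occurred in 6 windows of 5 genes, against 10.2% of all windows. A match describes the letters only, and no factor was measured at these sites.

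Levels of the transporter genes spanned more than 3 orders of magnitude. Per kb of exon in GENCODE M21, the mean normalised count over all libraries was highest for the heavy chain gene Slc3a2, at 4190. Slc7a8, the light chain LAT2, followed at 1062 per kb and Slc7a11, the cystine and glutamate exchanger xCT, at 811 per kb. The taurine transporter gene Slc6a6 stood at 713 and Slc38a10 at 673 per kb. The lowest was Slc1a2, the glutamate transporter of astrocytes, at 0.728 per kb. These means pool all subsets and both treatments, so they rank the genes in the series and not in any cell type, and no spread over libraries can be given for neighbours in the order.

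**Figure D1:**
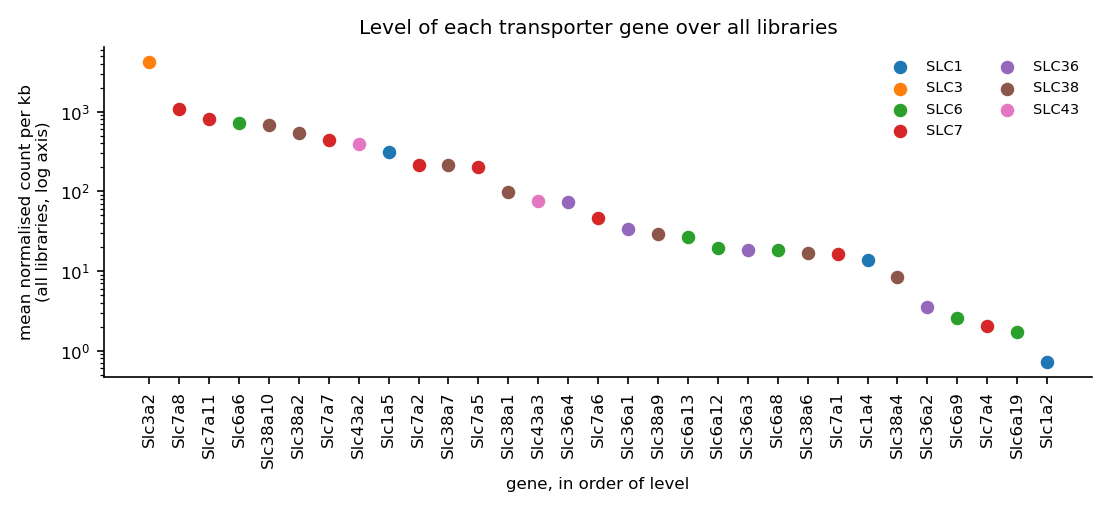
Mean normalised count per kb of exon over all libraries (log axis) for each of the 31 transporter genes, in order of level and coloured by family; each point is the authors' mean over libraries divided by the GENCODE M21 exon length. Slc3a2 stands highest at 4190 per kb and Slc1a2 lowest at 0.728 per kb.

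After irradiation, transporter genes moved in both directions in TAM, and most of those called in granulocytes rose. In TAM 11 of the 31 genes rose and 5 fell, together 51.6%. Of all 16851 genes tested there, 13.9% rose and 12.5% fell, together 26.4%. In inflammatory monocytes 4 rose and 3 fell, together 22.6%, and of 14506 genes 4.13% rose and 1.77% fell, together 5.9%. In granulocytes 10 rose and 2 fell, together 38.7%, and of 15679 genes 7.32% rose and 9.9% fell, together 17.2%. Calls are more frequent among well expressed genes, and all 16 genes called in TAM were among the 24 transporter genes with a mean of at least 50, where 36.1% of all genes were called. In inflammatory monocytes all 7 genes called were among those 24, where 7.1% of all genes were called. In granulocytes 10 of the 12 were, against 21.6% of all genes. In TAM the 31 genes had a median log2 fold change of 0.28, against 0.03 over all genes tested. The medians were -0.13 against -0.03 in granulocytes and 0.08 against 0.02 in inflammatory monocytes. These shares and medians describe the list and were not tested against other genes. The Wald statistics of all genes were widely spread, and after division by their robust SD 0 of the 31 passed in any subset, at a Benjamini-Hochberg adjusted p under 0.05. By that setting 0 of all genes passed in TAM and in granulocytes, and 20 rose and 5 fell in inflammatory monocytes. It therefore says little about the transporter genes in particular. With filtered genes included in the adjustment, the calls of Slc6a8, Slc7a6 and Slc38a7 in TAM, of Slc1a4, Slc1a5, Slc7a1 and Slc7a2 in inflammatory monocytes, and of Slc36a2, Slc38a9 and Slc38a10 in granulocytes were lost. Over the 3 subsets, 22 genes were called at least in 1, 15 of them only as higher and 6 only as lower. Slc3a2 was the exception, called as higher in TAM and as lower in granulocytes.

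**Figure D2:**
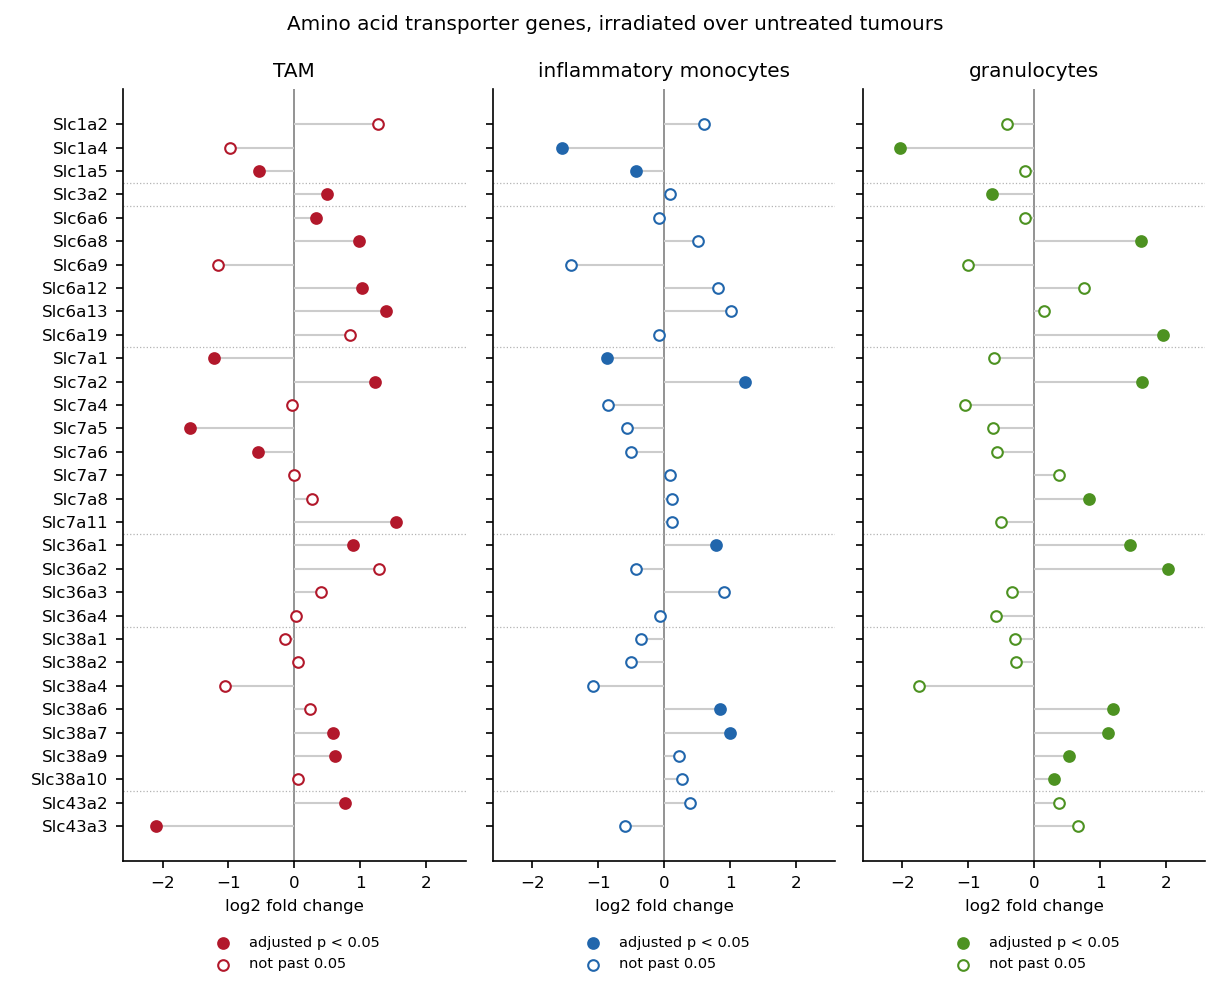
Deposited log2 fold change (irradiated over untreated, x axis) of each transporter gene from the authors' deposited tables, in TAM, inflammatory monocytes and granulocytes; filled points have an adjusted p under 0.05, open points do not, and dotted lines part the families. Slc7a2, Slc36a1 and Slc38a7 are filled on the right in all 3 panels.

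The heavy chain gene Slc3a2, which encodes 4F2hc (CD98), rose in TAM and fell in granulocytes. Its log2 fold change in the authors' deposited table was 0.49 in TAM (Wald statistic 3.54, adjusted p = 0.0030). In granulocytes it was -0.64 in the authors' deposited table (Wald statistic -4.29, adjusted p = 0.00054). Inflammatory monocytes lay between, with 0.10 in the authors' deposited table (Wald statistic 0.67, adjusted p = 0.78). A joint test for opposite directions in TAM and granulocytes, taking the larger p of both, gave Slc3a2 p = 0.00040, but an adjusted p of 0.13 over 15679 genes. By that test 0 transporter genes passed in any pair of subsets, and Slc3a2 was the single one with an unadjusted p under 0.05. Among all genes 15 passed between TAM and granulocytes, or 0.0957%, and 0% in the other pairs. Where a gene below was called in 1 subset and not in another, a difference between the subsets is therefore not shown, and its size was not tested because the deposited folds come without standard errors.

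The light chains that pair with 4F2hc did not move as a group. Slc7a11, or xCT, rose in TAM, where the authors' deposited table gave 1.54 on the log2 scale (Wald statistic 4.61, adjusted p = 6.4e-05). In inflammatory monocytes Slc7a11 had 0.12 (adjusted p = 0.89) and in granulocytes -0.50 (adjusted p = 0.34) in the authors' deposited tables. Slc7a5, the large neutral amino acid exchanger LAT1, fell in TAM by 1.58 on the log2 scale of the authors' deposited table (Wald statistic -5.02, adjusted p = 1.2e-05). Its values in inflammatory monocytes (-0.56, adjusted p = 0.31) and granulocytes (-0.63, adjusted p = 0.18) were also negative in the authors' deposited tables but did not pass. Slc7a6, the y+LAT2 exchanger of cationic and neutral amino acids, fell in TAM by 0.55 in the authors' deposited table (Wald statistic -2.64, adjusted p = 0.035). Slc7a6 had nearly the same fold in the other subsets, -0.51 in inflammatory monocytes (adjusted p = 0.14) and -0.56 in granulocytes (adjusted p = 0.072) in the authors' deposited tables. Slc7a8, which shares many substrates with LAT1, rose in granulocytes with 0.83 in the authors' deposited table (Wald statistic 3.88, adjusted p = 0.0020). Its values were 0.28 in TAM (adjusted p = 0.34) and 0.12 in inflammatory monocytes (adjusted p = 0.83) in the authors' deposited tables. For Slc7a7, or y+LAT1, the authors' deposited tables gave 0.37 in granulocytes, 0.08 in inflammatory monocytes and -0.002 in TAM, with adjusted p of 0.094, 0.83 and 0.99. By these calls the heavy chain and xCT rose and LAT1 and y+LAT2 fell in TAM, and the heavy chain fell and LAT2 rose in granulocytes. The folds of LAT1, y+LAT2 and LAT2 had the same sign in both subsets, so for them no difference is shown.

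**Figure D3:**
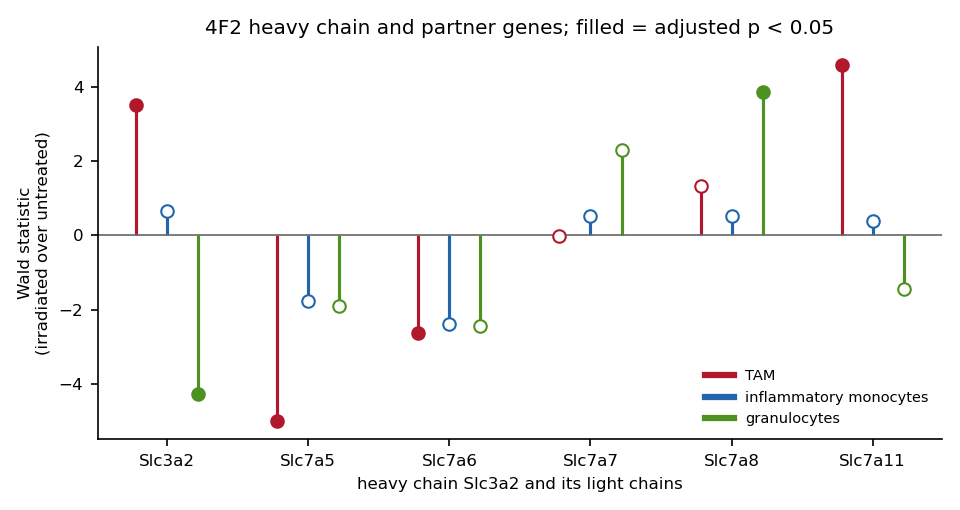
Wald statistic (irradiated over untreated, y axis) of the heavy chain gene Slc3a2 and 5 light chain genes in the authors' deposited tables, by subset; filled points have an adjusted p under 0.05. Slc3a2 stands at 3.54 in TAM and -4.29 in granulocytes, and Slc7a5 and Slc7a11 stand at -5.02 and 4.61 in TAM.

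The cationic amino acid transporters, which need no heavy chain, moved in opposite ways. Slc7a2 (CAT2), the arginine carrier that is induced in activated macrophages, rose in all 3 subsets. Its log2 fold changes in the authors' deposited tables were 1.23 in TAM (Wald statistic 3.08, adjusted p = 0.011), 1.23 in inflammatory monocytes (3.08, adjusted p = 0.040) and 1.63 in granulocytes (3.97, adjusted p = 0.0016). Slc7a1 (CAT1), the broadly expressed arginine carrier, fell by 1.21 in TAM in the authors' deposited table (Wald statistic -4.63, adjusted p = 5.9e-05). It also fell by 0.87 in inflammatory monocytes in the authors' deposited table (Wald statistic -3.28, adjusted p = 0.026). In granulocytes the authors' deposited table gave Slc7a1 -0.61 (adjusted p = 0.12). The remaining SLC7 gene, Slc7a4, had a mean count of 8.39, log2 fold changes between -1.04 and -0.03 in the authors' deposited tables, and passed in no subset. Of the enzymes that use arginine, picked here after their values were seen, Arg1, or arginase 1, rose in all 3 subsets, with Wald statistics of 4.73 in TAM, 6.52 in granulocytes and 3.28 in inflammatory monocytes in the authors' deposited tables. Nos2, the inducible nitric oxide synthase, rose in TAM with 1.80 and in granulocytes with 1.90 in the authors' deposited tables, beside 1.40 in inflammatory monocytes (adjusted p = 0.091). Arg2, or arginase 2, rose in TAM and had 0.68 in inflammatory monocytes (adjusted p = 0.29) and -0.53 in granulocytes (adjusted p = 0.34) in the authors' deposited tables.

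The neutral amino acid exchangers of SLC1 fell. Slc1a5 (ASCT2), a sodium-dependent glutamine carrier, fell by 0.53 in TAM in the authors' deposited table (Wald statistic -3.95, adjusted p = 0.00077). In inflammatory monocytes it fell by 0.43 (Wald statistic -3.11, adjusted p = 0.038), and granulocytes had -0.13 (adjusted p = 0.58), in the authors' deposited tables. Slc1a4 (ASCT1), which carries serine, alanine and cysteine, fell by 2.04 in granulocytes in the authors' deposited table (Wald statistic -3.76, adjusted p = 0.0030). It fell by 1.54 in inflammatory monocytes (Wald statistic -2.98, adjusted p = 0.049) and had -0.98 in TAM (adjusted p = 0.15), in the authors' deposited tables. Slc1a2, at a mean count of 9.56, had -0.41 in granulocytes, 0.60 in inflammatory monocytes and 1.27 in TAM in the authors' deposited tables and passed in none.

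LAT1, CAT1, ASCT2, y+LAT2 and Slc43a3 fell in TAM, where markers of cycling cells fell too. All 10 listed cycling markers fell in TAM and in granulocytes and 5 of 10 in inflammatory monocytes, with median log2 fold changes of -2.51, -2.16 and -1.20. In granulocytes none of these transporter genes was called. Adjusted p there was 0.18 for LAT1, 0.12 for CAT1, 0.58 for ASCT2, 0.072 for y+LAT2 and 0.39 for Slc43a3. In inflammatory monocytes only CAT1 and ASCT2 among them fell. The part of cell division in these transporter results was not tested. Markers of other cells also moved in TAM, where 9 of 11 neutrophil markers and 6 of 8 classical monocyte markers rose, and 4 of 8 dendritic cell markers fell. For 4 of these neutrophil genes the deposited fold and statistic differ in sign, which occurs for 0 of the 31 transporter genes. The median log2 fold change of the neutrophil markers in TAM was -0.05. Fibroblast and endothelial markers fell for 3 of 9 and rose for 1 in TAM and fell for 3 of 9 in granulocytes (medians -1.17 and -1.20), and T and NK cell markers fell for 2 of 11 in each (medians -0.86 and -1.15). Of 6 B and plasma cell markers tested, 1 fell in TAM and 1 rose in inflammatory monocytes. Of 5 eosinophil markers tested 4 rose in TAM, as did 2 of 10 macrophage markers and 2 of 10 epithelial and tumour cell markers. Eosinophil markers also rose for 2 of 5 in inflammatory monocytes and 1 of 5 in granulocytes. In inflammatory monocytes 8 of 10 macrophage markers and 7 of 11 neutrophil markers rose, and in granulocytes 4 of 10 macrophage markers and 4 of 8 classical monocyte markers. Over all genes tested 13.9% rose and 12.5% fell in TAM, 4.13% and 1.77% in inflammatory monocytes, and 7.32% and 9.9% in granulocytes. The part of such cells in the calls of Slc7a11, Slc7a2 and the other transporter genes was not tested, and levels of markers in each group were not analysed here, so the sorted identities could not be checked against them.

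Slc36a1 (PAT1), a proton-coupled exporter of small amino acids from lysosomes, rose in all 3 subsets. In the authors' deposited tables its log2 fold change reached 1.46 in granulocytes (Wald statistic 5.77, adjusted p = 1.2e-06), beside 0.89 in TAM (3.98, adjusted p = 0.00071) and 0.78 in inflammatory monocytes (3.41, adjusted p = 0.019). Slc38a7 (SNAT7), which exports glutamine and asparagine from lysosomes, did so too. Its values in the authors' deposited tables were 0.59 in TAM (Wald statistic 2.66, adjusted p = 0.033), 1.00 in inflammatory monocytes (4.43, adjusted p = 0.00092) and 1.12 in granulocytes (4.71, adjusted p = 0.00012). The TAM value of Slc38a7 did not pass when p-values were adjusted over every gene (adjusted p = 0.062) or when statistics were shifted to a median of 0 (0.057). Slc38a9, the arginine sensor through which lysosomal amino acids reach mTORC1, rose with 0.61 in TAM (Wald statistic 3.45, adjusted p = 0.0040) and 0.53 in granulocytes (2.72, adjusted p = 0.041) in the authors' deposited tables. Inflammatory monocytes had 0.22 for Slc38a9 in the authors' deposited table (adjusted p = 0.54). Slc36a1, Slc38a7 and Slc38a9 stand together here by their known location, a grouping made after their values had been seen. Of other lysosomal carriers in the lists, Ctns, the cystine exporter, passed in no subset, while Slc15a3 rose in TAM, Slc15a4 and Mfsd12 in granulocytes, and Slc17a5 in granulocytes and inflammatory monocytes at an adjusted p under 0.05.

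Slc36a2 (PAT2) rose in granulocytes with 2.03 in the authors' deposited table (Wald statistic 2.72, adjusted p = 0.041), at a mean count of 11.6. It had 1.29 in TAM (adjusted p = 0.32) and -0.43 in inflammatory monocytes (adjusted p = 0.90) in the authors' deposited tables. Slc36a3 and Slc36a4 passed in no subset. For Slc36a4 (PAT4) the authors' deposited tables gave -0.57 in granulocytes (adjusted p = 0.15), -0.06 in inflammatory monocytes (0.94) and 0.03 in TAM (0.96), and for Slc36a3 values from -0.34 to 0.91. Slc38a6 (SNAT6) rose with 0.84 in inflammatory monocytes (Wald statistic 3.51, adjusted p = 0.015) and 1.20 in granulocytes (4.43, adjusted p = 0.00034) in the authors' deposited tables, and had 0.25 in TAM (adjusted p = 0.50). Slc38a10 rose in granulocytes with 0.30 in the authors' deposited table (Wald statistic 2.64, adjusted p = 0.049), and had 0.26 in inflammatory monocytes (adjusted p = 0.14) and 0.05 in TAM (adjusted p = 0.77). The sodium-coupled glutamine importers Slc38a1 (SNAT1) and Slc38a2 (SNAT2) passed in none. For Slc38a2, whose RNA is raised by amino acid shortage, the authors' deposited tables gave -0.50 in inflammatory monocytes (adjusted p = 0.071), -0.28 in granulocytes and 0.05 in TAM. Slc38a1 had -0.35 in inflammatory monocytes (adjusted p = 0.20), -0.29 in granulocytes (0.24) and -0.14 in TAM (0.59) in the authors' deposited tables. Slc38a4 had negative values in all subsets, from -1.76 to -1.05, and came nearest to the threshold in granulocytes in the authors' deposited tables (adjusted p = 0.051).

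SLC6 carriers import osmolytes, creatine and amino acids with sodium and chloride, and those that were called rose. In TAM 4 of 6 rose and in granulocytes 2 of 6, while in inflammatory monocytes 0 passed the authors' Wald test in DESeq2. Over all genes tested 13.9%, 7.32% and 4.13% rose in these subsets, and the 6 genes were not tested against them. In inflammatory monocytes 2 had an unadjusted p under 0.05 in the positive direction, Slc6a12 and Slc6a13, and 1 in the negative direction, Slc6a9. Slc6a8, the creatine transporter, rose with 0.99 in TAM (adjusted p = 0.030) and 1.62 in granulocytes (adjusted p = 0.00098) in the authors' deposited tables. Its TAM value did not pass under adjustment over every gene (adjusted p = 0.056) or after the shift to a median of 0 (0.052). Slc6a6, the taurine transporter, rose by a smaller step in TAM, 0.34 in the authors' deposited table (Wald statistic 2.97, adjusted p = 0.015), and had -0.09 in inflammatory monocytes and -0.14 in granulocytes. Slc6a12 and Slc6a13, which carry betaine and GABA, rose in TAM with 1.02 (adjusted p = 0.021) and 1.39 (adjusted p = 0.024) in the authors' deposited table. In inflammatory monocytes they had 0.82 (adjusted p = 0.085) and 1.01 (adjusted p = 0.20) in the authors' deposited table. In granulocytes Slc6a12 had 0.76 and Slc6a13 0.15 in the authors' deposited table, beside Wald statistics of 0.58 and 0.06. Slc6a19, the neutral amino acid carrier of gut and kidney, rose in granulocytes with 1.96 in the authors' deposited table (adjusted p = 0.0082) at a mean count of only 8.59. Slc6a9, the glycine transporter GlyT1, had -1.16 in TAM (adjusted p = 0.20), -1.42 in inflammatory monocytes (0.20) and a negative value in granulocytes (0.34) in the authors' deposited tables, and passed in none.

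In SLC43, Slc43a2 (LAT4), a facilitated carrier of branched-chain amino acids and phenylalanine, had the smallest p of the transporter genes in TAM. It rose with 0.77 in the authors' deposited table (Wald statistic 5.46, adjusted p = 1.4e-06). Its values were 0.40 in inflammatory monocytes (adjusted p = 0.075) and 0.38 in granulocytes (adjusted p = 0.058) in the authors' deposited tables. Slc43a3, which despite its family carries purine nucleobases, fell in TAM by 2.11 in the authors' deposited table (Wald statistic -4.71, adjusted p = 4.3e-05). This was the lowest fold among the 31 genes in TAM. In inflammatory monocytes Slc43a3 had -0.60 (adjusted p = 0.55) and in granulocytes 0.67 (adjusted p = 0.39) in the authors' deposited tables.

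Reads of overlapping genes on opposite strands cannot be told apart in a kit that keeps no strand. In GENCODE M21, exons of 9 transporter genes overlap exons of a gene on the other strand. Of those called, the overlap was 922 bases for Slc43a2, 635 for Slc7a2, 367 for Slc38a10, 182 for Slc38a9 and 117 for Slc6a6, and the part of these overlaps in the calls was not tested.

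Genes around the transporters were counted in 5 lists. In the list of the GCN2 and ATF4 response, which cells mount when amino acids run short or translation is stressed, 9 of 15 tested genes rose in TAM and 1 fell, and the median on the log2 scale was 0.54. In granulocytes 2 of these 15 rose and 6 fell, with a median of -0.66, and in inflammatory monocytes 0 rose and 1 fell, with a median of -0.16. Over all genes tested 13.9% rose and 12.5% fell in TAM, 7.32% and 9.9% in granulocytes, and 4.13% and 1.77% in inflammatory monocytes. The list was not tested against them. Sesn2, which senses leucine, rose in TAM with 1.58 in the authors' deposited table (adjusted p = 9.3e-11), and so did Ddit4, an inhibitor of mTORC1, with 1.82 (adjusted p = 1.6e-06). In granulocytes Sesn2 fell by 0.73 (adjusted p = 0.017), and Ddit4 had -0.41 (adjusted p = 0.46). Cebpb, a transcription factor gene, rose with 1.05 in TAM and fell by 0.69 in granulocytes in the authors' deposited tables. Atf3, a transcription factor of the same response, rose with 0.78 in TAM and fell by 0.85 in granulocytes in the authors' deposited tables. Asns, asparagine synthetase, fell in TAM by 1.54 in the authors' deposited table (adjusted p = 0.0031). Uncalled members in TAM were Chac1 (-1.21, adjusted p = 0.31), Atf5 (-0.78, 0.093), Trib3 (-0.70, 0.18), Eif2ak4, which encodes GCN2 (-0.22), and Atf4 itself (0.06, 0.85) in the authors' deposited table. Of these, Eif2ak4 and Atf4 fell in granulocytes, by 0.78 (adjusted p = 0.0074) and 0.55 (adjusted p = 0.040). Ppp1r15a, which restores translation, fell in granulocytes by 0.96 and Nupr1 rose there with 0.99 in the authors' deposited table. Asns also fell by 1.64 in inflammatory monocytes in the authors' deposited table (adjusted p = 0.0081).

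Enzymes that make or use amino acids were called in both directions, with more lower than higher in TAM and granulocytes. In TAM 10 of 31 fell and 5 rose, in inflammatory monocytes 3 of 30 fell and 2 rose, and in granulocytes 10 of 30 fell and 3 rose, with medians of -0.39, -0.14 and -0.27. Of all genes tested 12.5% fell and 13.9% rose in TAM, 1.77% fell and 4.13% rose in inflammatory monocytes, and 9.9% fell and 7.32% rose in granulocytes, and the list was not tested against them. The serine and glycine enzyme gene Shmt2 fell in all 3 subsets, by 1.57 in TAM, 1.26 in granulocytes and 0.82 in inflammatory monocytes in the authors' deposited tables. Aldh18a1, of proline synthesis, fell by 1.19 in TAM, and Shmt1 by 2.22, in the authors' deposited table. Both also fell in granulocytes, by 0.94 (adjusted p = 0.00067) and 1.15 (adjusted p = 0.041). In granulocytes Bcat1, a branched-chain aminotransferase, fell by 2.69 and Psat1, of serine synthesis, by 1.79 in the authors' deposited table. Psat1 fell in the other subsets too, by 2.10 in TAM (adjusted p = 1.2e-06) and 1.22 in inflammatory monocytes (adjusted p = 0.036). Arg2, or arginase 2, rose in TAM with 2.80 in the authors' deposited table (adjusted p = 1.4e-12). Glul, glutamine synthetase, rose in TAM with 1.03 (adjusted p = 9.1e-05) and in inflammatory monocytes with 0.79 (adjusted p = 0.018). Granulocytes had 0.36 for Glul (adjusted p = 0.33).

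Of 14 genes of glutathione and cystine use, 4 rose in TAM and none fell, with a median of 0.10. They were Gsr, glutathione reductase, with 1.41, Gpx1 with 0.64, Cd44 with 0.71 and the transcription factor gene Nfe2l2 with 0.45 in the authors' deposited table. In inflammatory monocytes 2 fell, Hmox1 by 1.16 and Gss by 0.61 in the authors' deposited table, and the median was -0.25. In granulocytes 2 rose and 2 fell, with a median of -0.01. Gpx1 (0.63) and Ggt1 (2.48) were higher there, and Cd44 (-0.74) and Txnrd1 (-0.81) lower, in the authors' deposited table. For Ggt1 the Wald statistic there was 2.90 (adjusted p = 0.028). In inflammatory monocytes Ggt1 had a fold of 2.06 beside a Wald statistic of 0.01, so its deposited fold is not the effect behind the statistic. Over all genes tested 13.9% rose and 12.5% fell in TAM, 4.13% and 1.77% in inflammatory monocytes, and 7.32% and 9.9% in granulocytes. This list too was not tested against them.

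Amino acid sensing and mTORC1 genes were called in both directions. In TAM 3 of 32 rose and 1 fell, in inflammatory monocytes 1 of 31 rose and 1 fell, and in granulocytes 2 of 32 rose and 6 fell, with medians of 0.003, -0.05 and 0.02. Over all genes tested the shares called were 26.4%, 5.9% and 17.2%. In TAM the higher ones were Sesn2, Ddit4 and Fnip1 (0.61), and Sesn1 was lower (-0.69), in the authors' deposited table. In granulocytes Flcn (-0.89), Rragc (-0.57) and Seh1l (-0.68) fell and Wdr24 rose (0.82) in the authors' deposited table. Sesn2 (-0.73) and Fnip1 (-0.55), which rose in TAM, also fell in granulocytes. Inflammatory monocytes had Lamtor1 higher (0.39) and Seh1l lower (-0.41) in the authors' deposited table.

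Of 14 other amino acid carriers tested, from further families, 1 rose in TAM, 1 rose and 1 fell in inflammatory monocytes, and 6 rose in granulocytes with none lower, with medians of 0.05, 0.16 and 0.32. In granulocytes they included the lysosomal carrier Slc17a5 (0.86), the aromatic amino acid carrier Slc16a10 (0.98), and the mitochondrial glutamate and aspartate carriers Slc25a22 (1.15) and Slc25a12 (0.49) in the authors' deposited table. Slc15a3, a lysosomal histidine and peptide carrier, rose in TAM with 0.49 in the authors' deposited table (adjusted p = 0.045). In inflammatory monocytes Slc17a5 rose (0.45) and Slc25a13 fell (-0.73) in the authors' deposited table. Over all genes tested 13.9% rose and 12.5% fell in TAM, 4.13% and 1.77% in inflammatory monocytes, and 7.32% and 9.9% in granulocytes. These carriers were not tested against them.

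**Figure D4:**
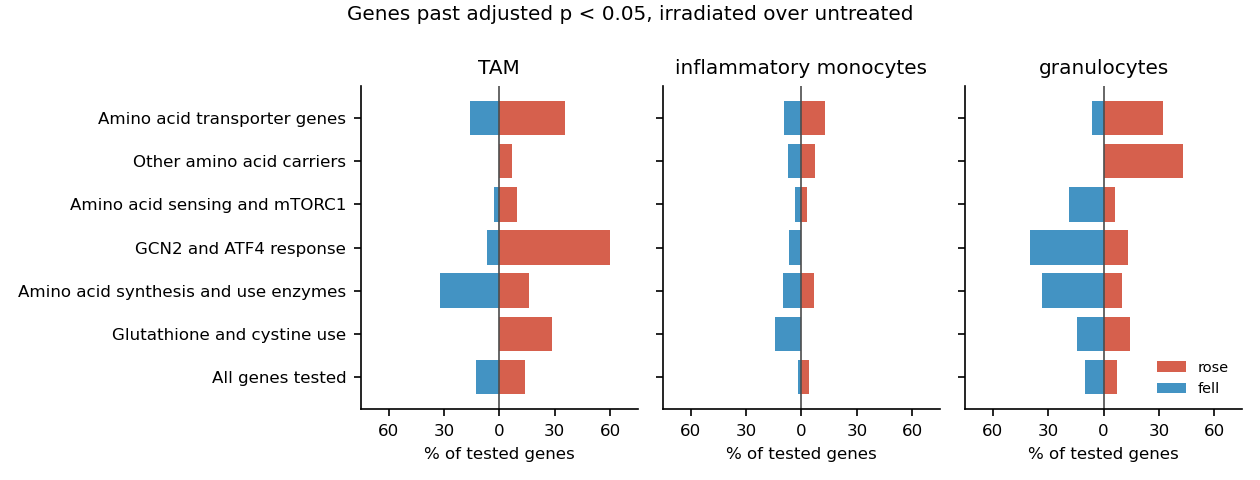
Share of tested genes that rose (right, red) or fell (left, blue) at an adjusted p under 0.05 (x axis, %) for the transporter genes, the 5 lists around them and all genes tested, in each subset. In TAM 9 of 15 genes of the GCN2 and ATF4 response rose, beside 13.9% of all genes tested. In granulocytes 6 of these 15 fell, beside 9.9% of all genes tested.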

How the data were processed

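RNA of 41 libraries from 15 tumour numbers was compared by the authors within each sorted subset. The submitters' processing notes name STAR 2.7.6a and fastp 0.20.1 for the reads, R 4.0.2 with DESeq2 1.28.1 for the tests, and build mm39 (GRCm39). How reads were counted, and on which annotation, is not given in the sources used here. Per the labels' protocols, libraries were made with Nextera XT from picogram amounts of cDNA, which keeps no strand and can widen the spread of low genes. The mean normalised count is a signal averaged by the authors over libraries, and is identical in all 3 deposited tables. For 16 genes called in TAM and 3 in inflammatory monocytes the sign of the deposited log2 fold change differs from that of the statistic. Folds and statistics therefore come from different estimates, and whether the folds were shrunken could not be told. The authors' Wald statistic is a score, and the deposited p-values match its two-sided normal p within 0.0021 on the log10 scale for means of at least 5. All 31 genes had a deposited adjusted p-value in every table. Tables were joined by symbol and counted with pandas 2.3.3 and scipy 1.17.1 in Python 3.11.15. For opposite directions the larger of both p-values was adjusted by Benjamini-Hochberg over the genes that both subsets tested, a step tested on simulated data. Values are given for every transporter gene that was called in at least 1 comparison and for uncalled ones with a mean of at least 50, with the rest by value or range, and for up to 4 called genes per list and comparison with the smallest p. Nos2, Ctns, Slc15a4 and Mfsd12 fall outside this and were chosen after they were seen. So were Chac1, Atf5, Trib3, Eif2ak4 and Atf4, which were uncalled in TAM. The same holds for some further values of listed genes, such as Arg1, Asns, Glul and Psat1 in TAM and Sesn2 in granulocytes. Of the listed genes 2 were not found by symbol, and 4 stand in more than 1 list. Exon lengths come from GENCODE M21 (GRCm38) and promoters from RefSeq (GRCm38.p6), both matched by symbol. The genes and lists were chosen with earlier results of these data known. Alternatives were other thresholds, count minimums, adjustments and rescaled statistics.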

Additional observations from a re-analysis of the deposited data

How the results depend on the processing

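No called transporter gene changed direction under the alternatives tried, but these could hardly show such a change. Other thresholds, count minimums, adjustments and division by an SD all keep the sign of the deposited statistic. The shift to a median of 0 moved statistics by no more than 0.244, the value in TAM. Fold and statistic already had the same sign for all 31 genes. In TAM (16 called), 9 passed at an adjusted p under 0.01, and 7 when the log2 fold change also had to reach 1 in size. In inflammatory monocytes (7 called) these settings left 1 and 2, and adjustment that included filtered genes left 3. When statistics were divided by their robust SD over genes with a mean of at least 50, 0 transporter genes passed in any subset, granulocytes included (12 before), since that setting takes the spread of all genes, 2.72, 1.56 and 2.09, as the null. Among all genes 0 passed then in TAM and in granulocytes, and 20 rose and 5 fell in inflammatory monocytes. At an adjusted p under 0.01, other amino acid carriers numbered 3 in granulocytes and 0 in TAM and inflammatory monocytes. Sensing and mTORC1 genes then numbered 0 in inflammatory monocytes and 3 in granulocytes, GCN2 and ATF4 genes 5 in TAM and 5 in granulocytes, synthesis and use enzymes 1 in inflammatory monocytes, and glutathione and cystine genes 0 in inflammatory monocytes and 2 in granulocytes. The opposite-direction test called 0 transporter genes in each of its settings, with 1 at an unadjusted p under 0.05 between TAM and granulocytes as deposited. No paired analysis was possible because irradiated and untreated libraries share 0 tumour numbers and only comparisons were at hand. For the same reason leaving out replicates was not run. Depth is unknown, and 7 transporter genes had a mean normalised count under 50.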
